A study of Rattus norvegicus with 8 samples.

Results

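The genes of glutathione, thioredoxin and related antioxidant enzymes were followed in the rat ovary. Members were chosen by symbol: glutathione transferases (Gsta, Gstm, Gsto, Gstp, Gstt, Gstk, Gstz and Mgst), glutathione peroxidases, the enzymes of glutathione synthesis and recycling, peroxiredoxins, thioredoxins with their reductases and thioredoxin-domain proteins, superoxide dismutases 1 to 3, catalase, Nqo1, Srxn1 and Nfe2l2. The array held 65 such genes of 26214 gene names, on 73 of its 30367 probes, and 61 genes on 69 probes were bright enough to be tested. Ovary RNA came from female rats on 8 one-colour Agilent arrays, 4 labelled PMSG and 4 labelled control. Per the labels, rats aged 26 days received 50 IU of PMSG under the skin in 0.2 ml of an albumin buffer, or that buffer alone, and ovaries were taken 48 h later, at 28 days. The titles of the control-labelled samples, however, call them a reference without treatment. PMSG, pregnant mare serum gonadotropin, acts mainly like follicle-stimulating hormone and is used to make follicles grow. The labels name no strain, no allele and no pooling of animals. They number the replicates 1 to 4 without saying that each is a separate animal, so p-values measure only the spread between these samples.

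Glutathione is a small thiol peptide made by glutamate-cysteine ligase and glutathione synthetase, used by peroxidases and transferases, and regenerated by glutathione reductase with NADPH. Peroxiredoxins remove peroxides at the expense of thioredoxin, which thioredoxin reductases, themselves selenoproteins, recharge from NADPH. The transcription factor NRF2, encoded by Nfe2l2, binds antioxidant response elements and drives many of these genes. In the ovary these enzymes are known in granulosa, theca and luteal cells, where mitochondrial steroid synthesis releases oxidants.

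Every level below is the log2 signal of a probe minus that array's 75th percentile, so that 0 marks the 75th percentile, and every difference is PMSG-labelled minus control-labelled on that log2 scale. The 75th percentile signal lay between 769 and 1103 on the 8 arrays. Directions follow the labels alone, since several hormone-responsive genes went against what is generally known of gonadotropin action. Lhcgr, the luteinising hormone receptor, differed by -1.93, and Cyp11a1, Star and Scarb1, which act in steroid synthesis or cholesterol uptake, by -3.36, -2.75 and -1.83, whereas Amh, made by small growing follicles, differed by 3.03. All 5 granulosa markers looked at (Fshr, Amh, Inha, Foxl2 and Esr2) were above background, and 2 of 5 were higher on the PMSG-labelled arrays. Their summed signal, in units of the array's 75th percentile, overlapped: 68.5 to 106 on control-labelled and 64.3 to 85.5 on PMSG-labelled arrays. Markers of other cells moved with the labels too. Summed signal, in units of the array's 75th percentile, was 147 to 169 on control-labelled and 14.7 to 32.5 on PMSG-labelled arrays for steroidogenic cells (4 of 4 markers lower), and 2.65 to 4.83 against 9.62 to 20.4 for oocytes (6 of 6 higher). The same ranges were 1.62 to 2.86 and 6.54 to 12.5 for oviduct epithelium (4 of 4 higher), 6.72 to 8.36 and 10.8 to 12.1 for leukocytes (4 of 4 higher), and 3.18 to 4.11 and 2.49 to 2.98 for endothelium (3 of 4 lower). They were 31.1 to 40.1 and 23.2 to 48.1 for theca cells (1 of 2 higher), 70.3 to 96.8 and 55.6 to 90.5 for red blood cells (1 of 4 lower), and 5.93 to 42.1 and 18.5 to 48.1 for adipocytes (1 of 4 higher), and no marker in these lists was below background on all arrays. The mean level of the 2 theca markers did not overlap: 2.69 to 3.16 on control-labelled and 3.31 to 4.37 on PMSG-labelled arrays. The part of these shifts in the results below was not tested, and fewer cells of a type and less RNA per cell cannot be told apart in whole ovary.

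The antioxidant genes that differed were mostly lower on the PMSG-labelled arrays. Of 61 tested member genes, each read from its brightest probe, 36 passed an adjusted p of 0.05 (limma, Benjamini-Hochberg over all 25303 tested probes): 28 fell and 8 rose. Over the whole array 34.2% of tested probes passed, 17.6% higher and 16.6% lower, and by brightest probe per gene 34.5% passed, 18% higher and 16.5% lower. Members passed in 59% of cases, 28 lower against 8 higher, and those 8 numbered 5 with median centring and when PMSG-labelled array 1, PMSG-labelled array 3, control-labelled array 2 or control-labelled array 4 was left out. Their median difference was -0.36, beside 0.11 over all tested probes. The median of all probes depends on the scaling: it was 0.11 with the 75th percentile, 0.027 with quantile normalization and -0.054 with median centring, where the member median was -0.36, -0.26 and -0.53. In 39 of 61 genes (63.9%) no PMSG-labelled level overlapped a control-labelled one, beside 37% of all genes. A difference of at least 2-fold with a call was found for 11 of 61 members, 5 higher and 6 lower, and normexp background correction gave 7. Over all 21926 genes 2631 (12%) had such a difference, 1608 higher and 1023 lower. The 11 members include Gsto2, whose bound measured against background is 1.905-fold. Taken by slide row, with 2 arrays of each label in a row, the member medians were -0.19 and -0.40.

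**Figure D1:**
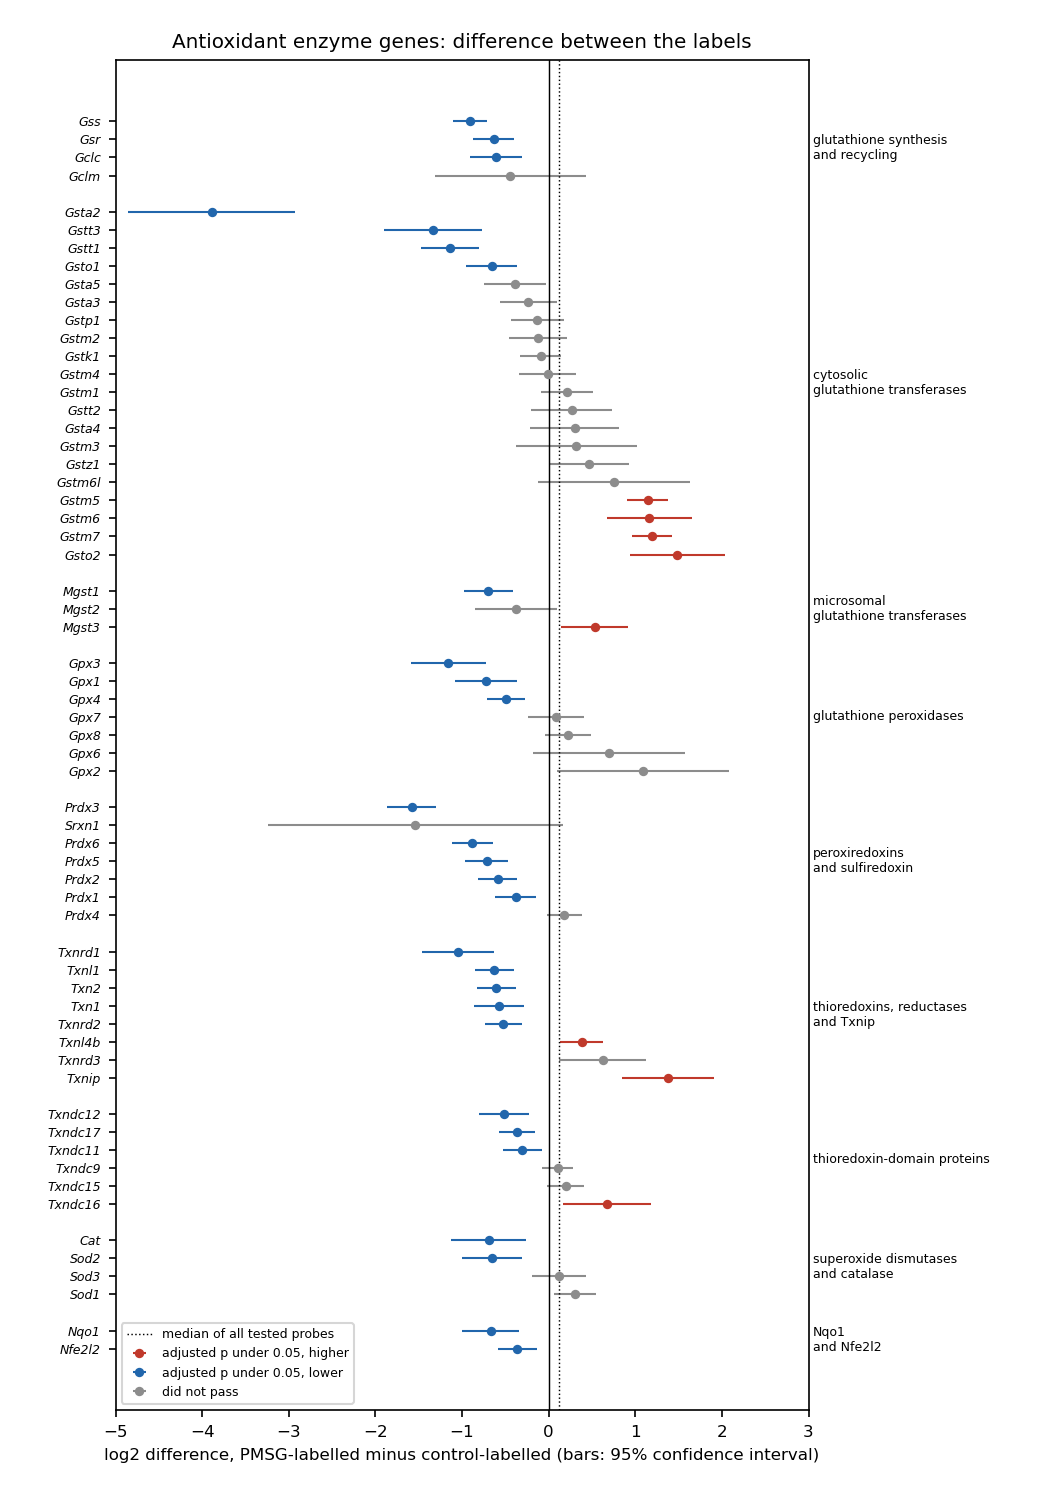
Log2 difference between PMSG-labelled and control-labelled arrays (x axis) for the 61 tested member genes (y axis), grouped by role, as point and 95% confidence interval from limma with n = 4 and 4. Most coloured points lie left of 0, with 28 genes lower (blue), 8 higher (red) and 25 that did not pass (grey); the array symbol Gsta5 is shown by its brightest probe.

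NRF2 binds an antioxidant response element whose core letters are TGACNNNGC, and these letters were searched on both strands of RefSeq promoter windows (GRCr8, 250 bases before to 50 after a gene's start). Of 66 member symbols, 57 matched the table, with 63 windows, and 18 windows (28.6%) held the letters, against 12.1% of all 33469 windows of the same length. Member windows also had more G and C (median 58% against 51.7%), which was not matched in that comparison. The letters were in 8 of 29 windows of genes that were lower, 3 of 8 of genes that were higher and 7 of 21 of genes without a call. The stretches below show the letters, in capitals, with up to 20 bases on each side, for called members where they lie upstream of the start, to let the sites of genes that fell and rose be compared. Matches on the other strand read as GCNNNGTCA. 
Prdx1 (chr5:135383751-135383799, plus strand): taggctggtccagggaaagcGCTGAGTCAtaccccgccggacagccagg
Txnrd1 (chr7:22755954-22756002, minus strand): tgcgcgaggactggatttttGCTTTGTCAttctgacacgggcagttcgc
Sod2 (chr1:50050175-50050223, minus strand): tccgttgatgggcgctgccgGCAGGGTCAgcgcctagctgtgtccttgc
Txndc11 (chr10:5022305-5022353, plus strand): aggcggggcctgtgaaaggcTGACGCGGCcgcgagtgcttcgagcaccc
Gstm5 first site (chr2:198219636-198219684, plus strand): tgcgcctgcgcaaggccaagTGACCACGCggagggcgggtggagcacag
Gstm5 second site (chr2:198219696-198219744, plus strand): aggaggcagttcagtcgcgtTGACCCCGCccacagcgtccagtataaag
Gstm7 (chr2:198260320-198260353, minus strand): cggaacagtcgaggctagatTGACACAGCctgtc
 The first 4 of these genes were lower and the last 2 higher on the PMSG-labelled arrays, so the letters occur beside genes of both directions. A match is a description of these letters and shows no binding.

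The enzymes that make and recycle glutathione fell in 3 of 4 cases (75% called, beside 34.5% of all genes). Gss, glutathione synthetase, catalyses the last step of synthesis. For Gss, the control-labelled levels were 0.76, 0.70, 0.85 and 0.91, and the PMSG-labelled levels were -0.14, -0.13, -0.054 and -0.087. Its log2 difference was -0.91 ± 0.087 (SE, n = 4 and 4, adjusted p = 0.000253), a 1.87-fold fall, and the highest PMSG-labelled level lay below the lowest control-labelled level by more than the range within either label. Gclc encodes the catalytic subunit of glutamate-cysteine ligase, the rate-limiting enzyme. Gclc lay at 1.70, 1.72, 1.24 and 1.75 across the control-labelled arrays, against 1.02, 1.08, 0.93 and 0.95 across the PMSG-labelled arrays. It fell, a log2 difference of -0.61 ± 0.13 (SE, n = 4 and 4, adjusted p = 0.00898); the labels did not overlap, and control-labelled array 3 lay nearest to the PMSG-labelled ones. Gclm, the modifier subunit, was close to background and above it on 2 of 4 arrays of each label. Gclm read -6.54, -6.34, -6.83 and -6.73 on control-labelled arrays 1 to 4, and -6.17, -7.01, -8.18 and -6.85 on PMSG-labelled arrays 1 to 4. Its log2 difference of -0.44 ± 0.38 (SE, n = 4 and 4, adjusted p = 0.386) did not pass, and the labels overlapped. Gsr encodes glutathione reductase, which restores oxidised glutathione. For Gsr, the control-labelled levels were -3.10, -3.12, -2.93 and -3.08, and the PMSG-labelled levels were -3.85, -3.52, -3.72 and -3.67. The gene fell, with a log2 difference of -0.63 ± 0.10 (SE, n = 4 and 4, adjusted p = 0.00232) and no overlap between the labels; with normexp the difference was -0.34. Median difference over the 4 genes was -0.62.

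Cytosolic glutathione transferases, which join glutathione to electrophiles, moved in both directions. Of 20 tested, 4 fell, 4 rose and 12 did not pass, with a median of 0.10. The share that passed, 40%, was near the 34.5% of all genes. They held 7 of the 11 members past 2-fold. Gsta2, an alpha class enzyme, had the largest difference among the members (probe at rn4 chr8:83299283-83299342). Gsta2 lay at 2.90, 3.56, 2.40 and 3.90 across the control-labelled arrays, against -0.18, -0.74, -0.22 and -1.66 across the PMSG-labelled arrays. This is a 14.8-fold fall, a log2 difference of -3.89 ± 0.42 (SE, n = 4 and 4, adjusted p = 0.000398), and the gap between the labels exceeded the range within each. The array's symbol Gsta5 covers 3 probes that RefSeq assigns to 2 genes, shown here because their differences disagree in sign and size. 
Gsta5-labelled probe at rn4 chr9:20026897-20029435, RefSeq Gsta3: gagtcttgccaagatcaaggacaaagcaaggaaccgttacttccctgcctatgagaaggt
Gsta5-labelled probe at rn4 chr9:20031594-20031653, RefSeq Gsta3: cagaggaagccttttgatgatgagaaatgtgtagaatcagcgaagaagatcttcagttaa
Gsta5-labelled probe at rn4 chr8:83211804-83211863, RefSeq Gsta5: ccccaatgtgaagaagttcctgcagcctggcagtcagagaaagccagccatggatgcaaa
 The chromosome 8 probe, between Gsta4 and Gsta2, fell: its levels were 2.43, 3.07, 2.01 and 3.40 on control-labelled and 0.31, 0.25, 0.47 and -0.79 on PMSG-labelled arrays, a log2 difference of -2.67 ± 0.37 (SE, n = 4 and 4, adjusted p = 0.00113). Of the chromosome 9 probes, the brightest read 4.34, 4.14, 4.03 and 4.19 on control-labelled and 3.76, 4.03, 3.97 and 3.39 on PMSG-labelled arrays (difference -0.39, adjusted p = 0.0891). The dimmer one read -2.57, -2.67, -2.54 and -3.70 on control-labelled and -2.77, -1.95, -1.73 and -0.74 on PMSG-labelled arrays (difference 1.07, adjusted p = 0.0912), so neither passed and their signs differed. Gsta4, which acts on lipid peroxidation products, gave 0.30 ± 0.23 and the probe with the array symbol Gsta3, which RefSeq calls Gsta1, gave -0.24 ± 0.14, neither past the threshold. No more than 13 bases in a row were shared between probes of different members. Probes were compared only with each other and not with transcripts of related genes, so binding to those transcripts was not tested.

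The mu class, 8 genes close together on chromosome 2, detoxifies a wide range of electrophiles. In this class 3 rose and 5 did not pass, so 37.5% were called, near the 34.5% of all genes. Its genes are listed here in their rn4 order, a grouping made after their values were seen. Gstm5 (rn4 chr2:203457561-203457711), the first, has the 2 letter matches shown earlier in its promoter window. Gstm5 read -0.20, -0.22, -0.13 and -0.32 on control-labelled arrays 1 to 4, and 1.12, 0.94, 0.83 and 0.82 on PMSG-labelled arrays 1 to 4. It rose 2.21-fold, a log2 difference of 1.15 ± 0.10 (SE, n = 4 and 4, adjusted p = 0.000199), and all 4 PMSG-labelled levels lay above all control-labelled ones. Gstm6l followed at 0.76 ± 0.38 without a call (adjusted p = 0.159). Next came Gstm7 (rn4 chr2:203491529-203491588), whose RefSeq promoter window holds 1 match to the letters. For Gstm7, the control-labelled levels were -0.34, -0.37, -0.53 and -0.62, and the PMSG-labelled levels were 0.68, 0.83, 0.74 and 0.66. It rose 2.29-fold, a log2 difference of 1.19 ± 0.10 (SE, n = 4 and 4, adjusted p = 0.000160), again without overlap. Gstm6 (rn4 chr2:203506354-203506413) was dimmer. Gstm6 lay at -4.64, -4.55, -4.58 and -4.70 across the control-labelled arrays, against -3.17, -3.27, -4.14 and -3.23 across the PMSG-labelled arrays. It rose 2.24-fold, a log2 difference of 1.16 ± 0.21 (SE, n = 4 and 4, adjusted p = 0.00392), with PMSG-labelled array 3 nearest to the control-labelled levels, and 0.66 with normexp. Further along, Gstm3, Gstm2, Gstm1 and Gstm4 gave 0.32, -0.12, 0.21 and -0.010, none past the threshold. Gstm2 and Gstm4 changed sign under other settings, so no direction is given for them.

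Theta and omega class genes also differed between neighbours. Gstt1 (rn4 chr20:13606684-13606743) and Gstt3 (rn4 chr20:13596708-13596767) lie side by side on chromosome 20, and both fell. Gstt1 read 1.60, 1.34, 1.34 and 1.25 on control-labelled arrays 1 to 4, and 0.38, 0.13, 0.52 and -0.043 on PMSG-labelled arrays 1 to 4. Gstt1 fell 2.20-fold, a log2 difference of -1.14 ± 0.15 (SE, n = 4 and 4, adjusted p = 0.000802) without overlap. For Gstt3, the control-labelled levels were 2.77, 2.50, 2.59 and 1.75, and the PMSG-labelled levels were 0.85, 0.74, 1.35 and 1.33. Gstt3 fell 2.52-fold, a log2 difference of -1.33 ± 0.25 (SE, n = 4 and 4, adjusted p = 0.00421), with control-labelled array 4 closest to the PMSG-labelled levels, and its other probe gave -1.18. Gstt2, 371 kb away, gave 0.26 ± 0.20 without a call, and Gstt4 beside it was above background on 0 arrays. Omega class enzymes reduce dehydroascorbate. Gsto1 fell (-0.66 ± 0.13, adjusted p = 0.00508). Gsto2 (rn4 chr1:253250432-253273581), on the same chromosome, was above background on 1 control-labelled and on all 4 PMSG-labelled arrays. Gsto2 lay at -7.16, -7.50, -6.90 and -6.62 across the control-labelled arrays, against -5.21, -5.41, -6.06 and -5.56 across the PMSG-labelled arrays. It was at least 1.905-fold higher on the PMSG-labelled arrays, measured against the floor of well-above-background spots (limma adjusted p = 0.00211), without overlap of the measured levels. Its measured log2 difference was 1.49, and with normexp background correction 0.37 (adjusted p = 0.0120), which is under that bound. Gstp1, Gstk1 and Gstz1, of the pi, kappa and zeta classes, gave -0.13 ± 0.13, -0.090 ± 0.10 and 0.47 ± 0.20, none past the threshold.

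**Figure D2:**
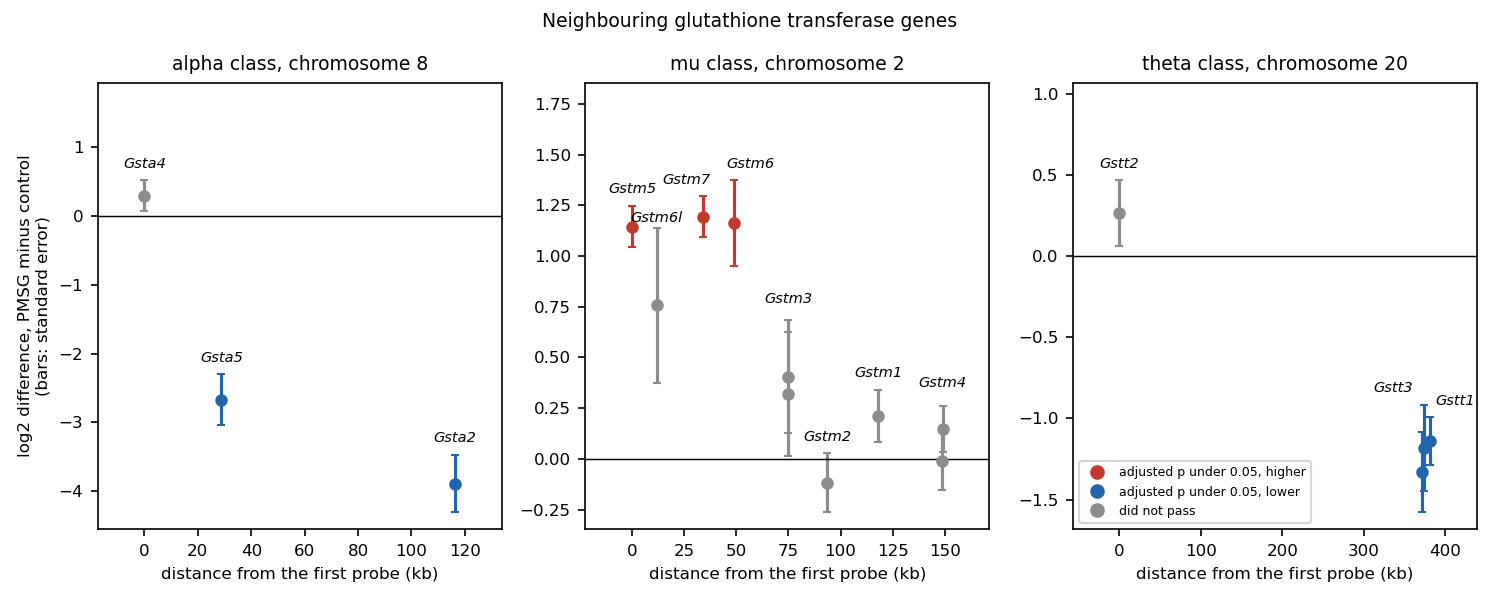
Log2 difference (y axis; point and standard error from limma, n = 4 and 4) against distance from the first probe of the cluster in kb (x axis) for neighbouring glutathione transferase genes of 3 classes, with each probe of a gene as its own point. Gsta2 and the chromosome 8 Gsta5 probe are far below 0, the first genes of the mu cluster lie near 1, and Gstt1 and Gstt3 lie together below -1.

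Microsomal transferases sit in membranes, and 1 of 3 fell, 1 rose and Mgst2 did not pass (median -0.38). The share called was thus 66.7%, beside 34.5% of all genes. Mgst1 protects membranes from lipid peroxides. Mgst1 read 1.94, 1.71, 2.09 and 1.87 on control-labelled arrays 1 to 4, and 1.09, 1.35, 1.33 and 1.07 on PMSG-labelled arrays 1 to 4. Mgst1 fell, a log2 difference of -0.69 ± 0.12 (SE, n = 4 and 4, adjusted p = 0.00321) without overlap. For Mgst3, the control-labelled levels were 1.01, 0.68, 1.09 and 0.57, and the PMSG-labelled levels were 1.53, 1.47, 1.47 and 1.01. Mgst3 rose, a log2 difference of 0.53 ± 0.17 (SE, n = 4 and 4, adjusted p = 0.0403), although PMSG-labelled array 4 lay within the control-labelled range. The Mgst3 call was lost in 9 of 17 settings, without PMSG-labelled arrays 1, 2 or 3 or control-labelled arrays 1, 2 or 4 and with median centring, no filter on dim probes or slide row as a block, with adjusted p from 0.0112 to 0.104 across settings.

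Of the glutathione peroxidases 3 of 7 tested, Gpx1, Gpx3 and Gpx4, fell, and none rose (median 0.085). The share called was 42.9%, beside 34.5% of all genes. Gpx3, the secreted plasma form (rn4 chr10:40316128-40317595), changed most. Gpx3 lay at -1.95, -2.44, -1.83 and -2.06 across the control-labelled arrays, against -3.30, -3.33, -2.79 and -3.50 across the PMSG-labelled arrays. It fell 2.23-fold, a log2 difference of -1.16 ± 0.19 (SE, n = 4 and 4, adjusted p = 0.00231), with no overlap. Gpx1 is the cytosolic and mitochondrial form. Gpx1 read 4.83, 4.77, 4.96 and 4.55 on control-labelled arrays 1 to 4, and 3.89, 3.84, 4.42 and 4.07 on PMSG-labelled arrays 1 to 4. Gpx1 fell, a log2 difference of -0.72 ± 0.15 (SE, n = 4 and 4, adjusted p = 0.00788), and the labels did not overlap. Gpx4 reduces lipid hydroperoxides in membranes. For Gpx4, the control-labelled levels were 5.96, 5.88, 5.86 and 5.81, and the PMSG-labelled levels were 5.40, 5.41, 5.52 and 5.22. It fell, a log2 difference of -0.49 ± 0.096 (SE, n = 4 and 4, adjusted p = 0.00531), its second probe also fell (-0.70), and neither overlapped between labels. Gpx2, the epithelial form, ran the other way but did not pass. Gpx2 lay at 1.14, 1.23, 2.29 and 0.64 across the control-labelled arrays, against 1.68, 2.06, 2.62 and 3.30 across the PMSG-labelled arrays. Its log2 difference was 1.09 ± 0.43 (SE, n = 4 and 4, adjusted p = 0.0842); PMSG-labelled array 4 was the highest and control-labelled array 3 overlapped the other label. Without control-labelled array 3 it was 1.41, adjusted p = 0.0305, in a range of 0.0305 to 0.195 over the 17 settings. Gpx6, Gpx7 and Gpx8 gave 0.69 ± 0.38, 0.085 ± 0.14 and 0.22 ± 0.12 without a call, and Gpx5, above background on 1 array, was not tested.

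Among peroxiredoxins 5 of 6 fell and none rose, with Srxn1 uncalled, and the median of the 7 genes was -0.71. Of these 7 genes 71.4% were called, beside 34.5% of all genes. Prdx3, the mitochondrial peroxiredoxin (rn4 chr1:267468941-267468999), fell most. Prdx3 read 3.52, 3.16, 3.09 and 3.33 on control-labelled arrays 1 to 4, and 1.70, 1.65, 1.85 and 1.57 on PMSG-labelled arrays 1 to 4. It fell 2.99-fold, a log2 difference of -1.58 ± 0.12 (SE, n = 4 and 4, adjusted p = 0.000111), and the gap between labels was wider than the range of either. Prdx6, which reduces peroxides with glutathione, fell too. For Prdx6, the control-labelled levels were 2.84, 2.64, 2.62 and 2.65, and the PMSG-labelled levels were 1.87, 1.74, 1.94 and 1.68. Its log2 difference was -0.88 ± 0.10 (SE, n = 4 and 4, adjusted p = 0.000520), without overlap. Prdx1 and Prdx2 are the abundant cytosolic forms. Prdx1 lay at 4.35, 4.25, 4.42 and 4.46 across the control-labelled arrays, against 4.09, 3.93, 4.12 and 3.83 across the PMSG-labelled arrays. Prdx1 fell, a log2 difference of -0.38 ± 0.10 (SE, n = 4 and 4, adjusted p = 0.0231). The Prdx1 call was lost in 4 of 17 settings, without PMSG-labelled array 2 or control-labelled arrays 1, 3 or 4, with adjusted p from 0.00416 to 0.0686 across settings. Prdx2 read 4.77, 4.59, 4.71 and 4.65 on control-labelled arrays 1 to 4, and 4.08, 4.18, 4.17 and 3.93 on PMSG-labelled arrays 1 to 4. Prdx2 fell, a log2 difference of -0.59 ± 0.097 (SE, n = 4 and 4, adjusted p = 0.00236) and did not overlap. Prdx5, found in mitochondria and peroxisomes, fell, a log2 difference of -0.71 ± 0.11 (SE, n = 4 and 4, adjusted p = 0.00171). Prdx4, the form of the endoplasmic reticulum, gave 0.18 ± 0.088 without a call. Srxn1 encodes sulfiredoxin, which repairs overoxidised peroxiredoxins. For Srxn1, the control-labelled levels were 2.09, 1.58, 1.76 and 1.83, and the PMSG-labelled levels were -0.77, 2.82, -0.69 and -0.25. PMSG-labelled array 2 lay above every other array and the other 3 PMSG-labelled arrays below every control-labelled one, and the log2 difference of -1.54 ± 0.74 (SE, n = 4 and 4, adjusted p = 0.142) did not pass. Without array 2 it was -2.39, adjusted p = 0.000407, in a range of 0.000407 to 0.299 over the 17 settings.

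Of the thioredoxin genes with their reductases and inhibitor, 5 of 8 fell, 2 rose and Txnrd3 did not pass (median -0.55). In this group 87.5% were called, beside 34.5% of all genes. Txnrd1, the cytosolic reductase (rn4 chr7:23055528-23055561), has a match to the letters, shown earlier, in its promoter window. Txnrd1 lay at -0.82, -0.91, -0.82 and -0.57 across the control-labelled arrays, against -2.01, -1.32, -1.84 and -2.12 across the PMSG-labelled arrays. It fell 2.06-fold, a log2 difference of -1.04 ± 0.18 (SE, n = 4 and 4, adjusted p = 0.00308), and a second probe fell too, at -1.10. PMSG-labelled array 2 came nearest to the control-labelled levels, and the labels did not overlap. Txn1 and Txn2 are the cytosolic and the mitochondrial thioredoxin. Txn1 read 5.32, 5.28, 5.21 and 5.26 on control-labelled arrays 1 to 4, and 4.80, 4.53, 4.97 and 4.48 on PMSG-labelled arrays 1 to 4. Txn1 fell, a log2 difference of -0.57 ± 0.13 (SE, n = 4 and 4, adjusted p = 0.00950). For Txn2, the control-labelled levels were 1.48, 1.45, 1.46 and 1.50, and the PMSG-labelled levels were 0.81, 0.72, 1.05 and 0.88. Txn2 fell, a log2 difference of -0.60 ± 0.098 (SE, n = 4 and 4, adjusted p = 0.00223), and neither gene overlapped between labels. Txnrd2 recharges mitochondrial thioredoxin. Txnrd2 lay at 0.68, 0.54, 0.67 and 0.63 across the control-labelled arrays, against 0.21, 0.12, 0.13 and -0.042 across the PMSG-labelled arrays. Txnrd2 fell, a log2 difference of -0.53 ± 0.092 (SE, n = 4 and 4, adjusted p = 0.00333) with no overlap. Txnl1, a proteasome-linked thioredoxin-like protein, fell by 0.63 (adjusted p = 0.00194). Txnip binds and inhibits thioredoxin, and its probe (rn4 chr2:191360631-191360690) rose. Txnip read 1.32, 0.84, 1.16 and 0.51 on control-labelled arrays 1 to 4, and 2.80, 2.41, 1.92 and 2.22 on PMSG-labelled arrays 1 to 4. It rose 2.60-fold, a log2 difference of 1.38 ± 0.23 (SE, n = 4 and 4, adjusted p = 0.00273), and the lowest PMSG-labelled level lay above the highest control-labelled one. Txnl4b, a splicing factor with a thioredoxin fold, rose by 0.38 (adjusted p = 0.0278). The Txnl4b call was lost in 7 of 17 settings, without PMSG-labelled arrays 1 or 3 or control-labelled arrays 1, 2, 3 or 4 and with median centring, with adjusted p from 0.0129 to 0.146 across settings. Txnrd3 gave 0.63 ± 0.22 (adjusted p = 0.0570) without a call, with adjusted p from 0.0201 to 0.272 over the 17 settings.

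Thioredoxin-domain proteins mostly serve protein folding, and 3 of 6 tested fell and 1 rose (median -0.10). Here 66.7% were called, beside 34.5% of all genes. For Txndc12, the control-labelled levels were 0.56, 0.53, 0.21 and 0.72, and the PMSG-labelled levels were -0.047, 0.13, -0.13 and 0.00090. Txndc12, of the endoplasmic reticulum, fell, a log2 difference of -0.51 ± 0.13 (SE, n = 4 and 4, adjusted p = 0.0158), with control-labelled array 3 closest to the other label. Txndc16 lay at -5.56, -5.57, -6.02 and -5.78 across the control-labelled arrays, against -4.57, -4.98, -5.06 and -5.63 across the PMSG-labelled arrays. Txndc16 rose, a log2 difference of 0.67 ± 0.22 (SE, n = 4 and 4, adjusted p = 0.0466), though PMSG-labelled array 4 overlapped the control-labelled arrays. The Txndc16 call was lost in 12 of 17 settings, without PMSG-labelled arrays 1, 2 or 3 or control-labelled arrays 1, 2, 3 or 4 and with normexp, quantile normalization, median centring, no filter on dim probes or slide row as a block, with adjusted p from 0.00678 to 0.128 across settings. Txndc17 and Txndc11 fell by 0.36 and 0.30 (adjusted p = 0.0163 and 0.0418). The Txndc17 call was lost in 2 of 17 settings, without control-labelled array 1 and with quantile normalization, with adjusted p from 0.00882 to 0.0906 across settings. The Txndc11 call was lost in 10 of 17 settings, without PMSG-labelled arrays 1, 2 or 4 or control-labelled arrays 1, 2, 3 or 4 and with quantile normalization, no filter on dim probes or slide row as a block, with adjusted p from 0.00839 to 0.102 across settings. Txndc9 and Txndc15 gave 0.10 ± 0.080 and 0.20 ± 0.092 without a call, and Txndc2 and Txndc8, above background on 2 and 0 arrays, were not tested.

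The superoxide dismutases and catalase differed by enzyme: 2 of 4 fell and none rose (median -0.27). That is 50% called, beside 34.5% of all genes. Sod2 is the mitochondrial manganese enzyme. Sod2 read 3.06, 2.66, 2.53 and 2.89 on control-labelled arrays 1 to 4, and 1.89, 2.31, 2.25 and 2.07 on PMSG-labelled arrays 1 to 4. Sod2 fell, a log2 difference of -0.65 ± 0.15 (SE, n = 4 and 4, adjusted p = 0.0115) without overlap. Catalase, encoded by Cat, breaks down hydrogen peroxide in peroxisomes. For Cat, the control-labelled levels were -3.53, -3.44, -3.04 and -3.61, and the PMSG-labelled levels were -4.27, -4.38, -3.69 and -4.06. Cat fell, a log2 difference of -0.69 ± 0.19 (SE, n = 4 and 4, adjusted p = 0.0217) without overlap. The Cat call was lost in 4 of 17 settings, without PMSG-labelled arrays 1 or 2 or control-labelled array 3 and with normexp, with adjusted p from 0.00588 to 0.0807 across settings. Sod1 is the cytosolic copper and zinc enzyme. Sod1 lay at 6.25, 6.09, 6.18 and 6.07 across the control-labelled arrays, against 6.56, 6.37, 6.59 and 6.29 across the PMSG-labelled arrays. All 4 PMSG-labelled levels were above all control-labelled ones, yet the log2 difference of 0.31 ± 0.10 (SE, n = 4 and 4, adjusted p = 0.0535) did not pass. Over the 17 settings the adjusted p of Sod1 ran from 0.0214 to 0.310, so some settings gave a call. Sod3 is the extracellular enzyme. Sod3 read 3.25, 3.21, 3.36 and 3.11 on control-labelled arrays 1 to 4, and 3.16, 3.40, 3.68 and 3.18 on PMSG-labelled arrays 1 to 4. Its log2 difference of 0.12 ± 0.14 (SE, n = 4 and 4, adjusted p = 0.505) did not pass, and the levels overlapped.

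Nfe2l2, which encodes NRF2, and its target Nqo1, a quinone reductase, both fell. For Nqo1, the control-labelled levels were -3.09, -3.18, -2.93 and -3.01, and the PMSG-labelled levels were -4.01, -3.89, -3.48 and -3.51. Nqo1 fell 1.59-fold, a log2 difference of -0.67 ± 0.14 (SE, n = 4 and 4, adjusted p = 0.00850) without overlap, and -0.37 with normexp. Nfe2l2 lay at 3.79, 3.63, 3.60 and 3.72 across the control-labelled arrays, against 3.32, 3.48, 3.30 and 3.19 across the PMSG-labelled arrays. Nfe2l2 fell, a log2 difference of -0.36 ± 0.099 (SE, n = 4 and 4, adjusted p = 0.0231), also without overlap. The Nfe2l2 call was lost in 4 of 17 settings, without PMSG-labelled array 1 or control-labelled arrays 1 or 4 and with quantile normalization, with adjusted p from 0.0136 to 0.128 across settings.

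**Figure D3:**
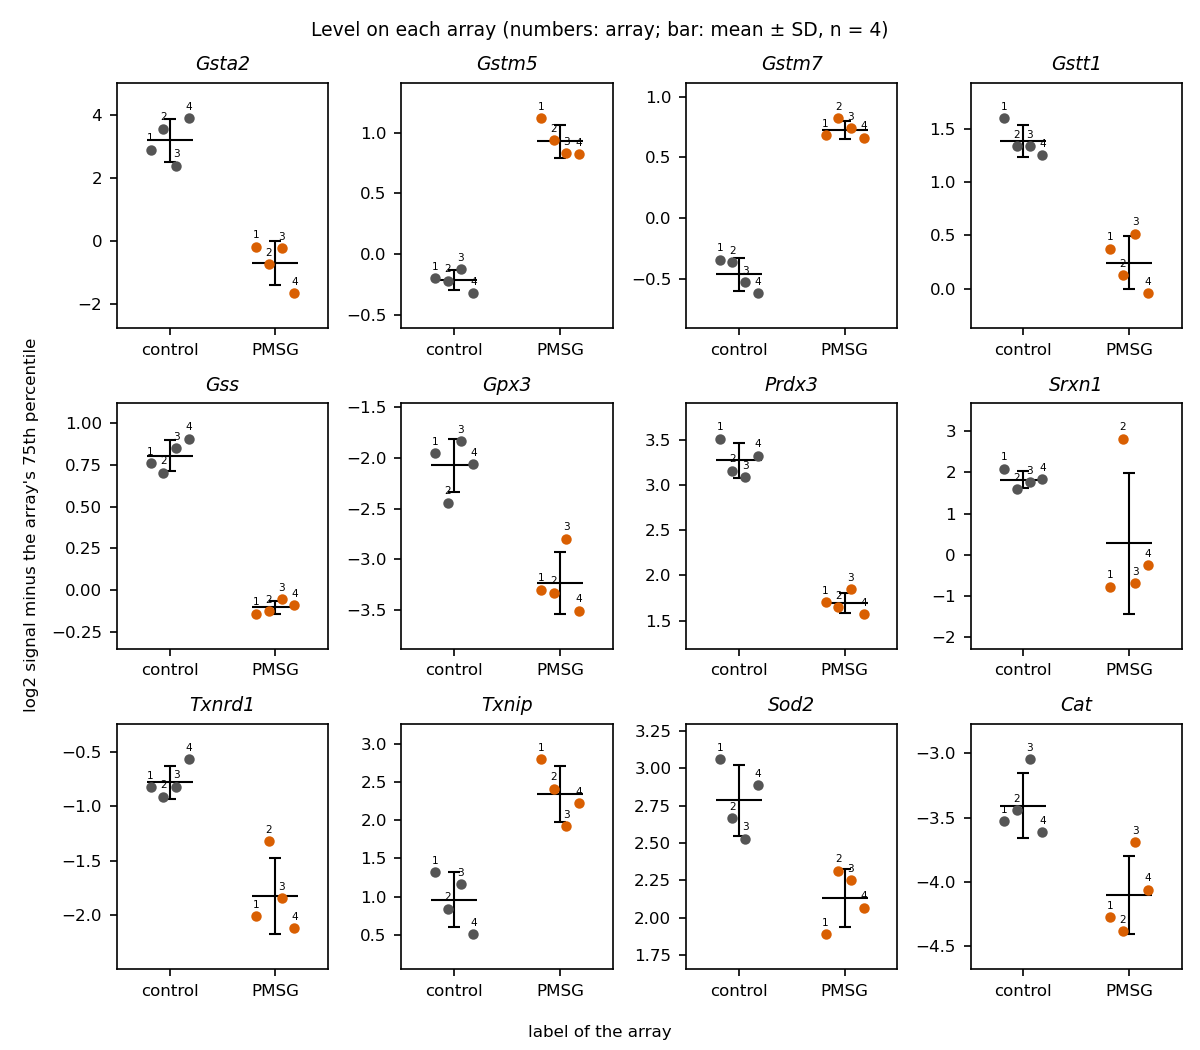
Level of 12 member genes on each array (y axis: log2 signal minus the array's 75th percentile, scaled per gene; x axis: label), with array numbers and the mean ± SD of 4 arrays. Srxn1, with PMSG-labelled array 2 at the top, is the only one of the 12 in which the labels overlap.

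The spread differed between labels. Median SD over the 61 members was 0.13 on control-labelled and 0.23 on PMSG-labelled arrays, and 0.18 without PMSG-labelled array 4. Over all tested probes these SDs were 0.16, 0.27 and 0.21. PMSG-labelled array 4 had the lowest mean member level, 0.69, against 0.90 on each of the other 3 and 1.01 to 1.11 on the control-labelled arrays. Without that array 38 members passed, 11 higher and 27 lower, and 45% of all probes did.

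**Figure D4:**
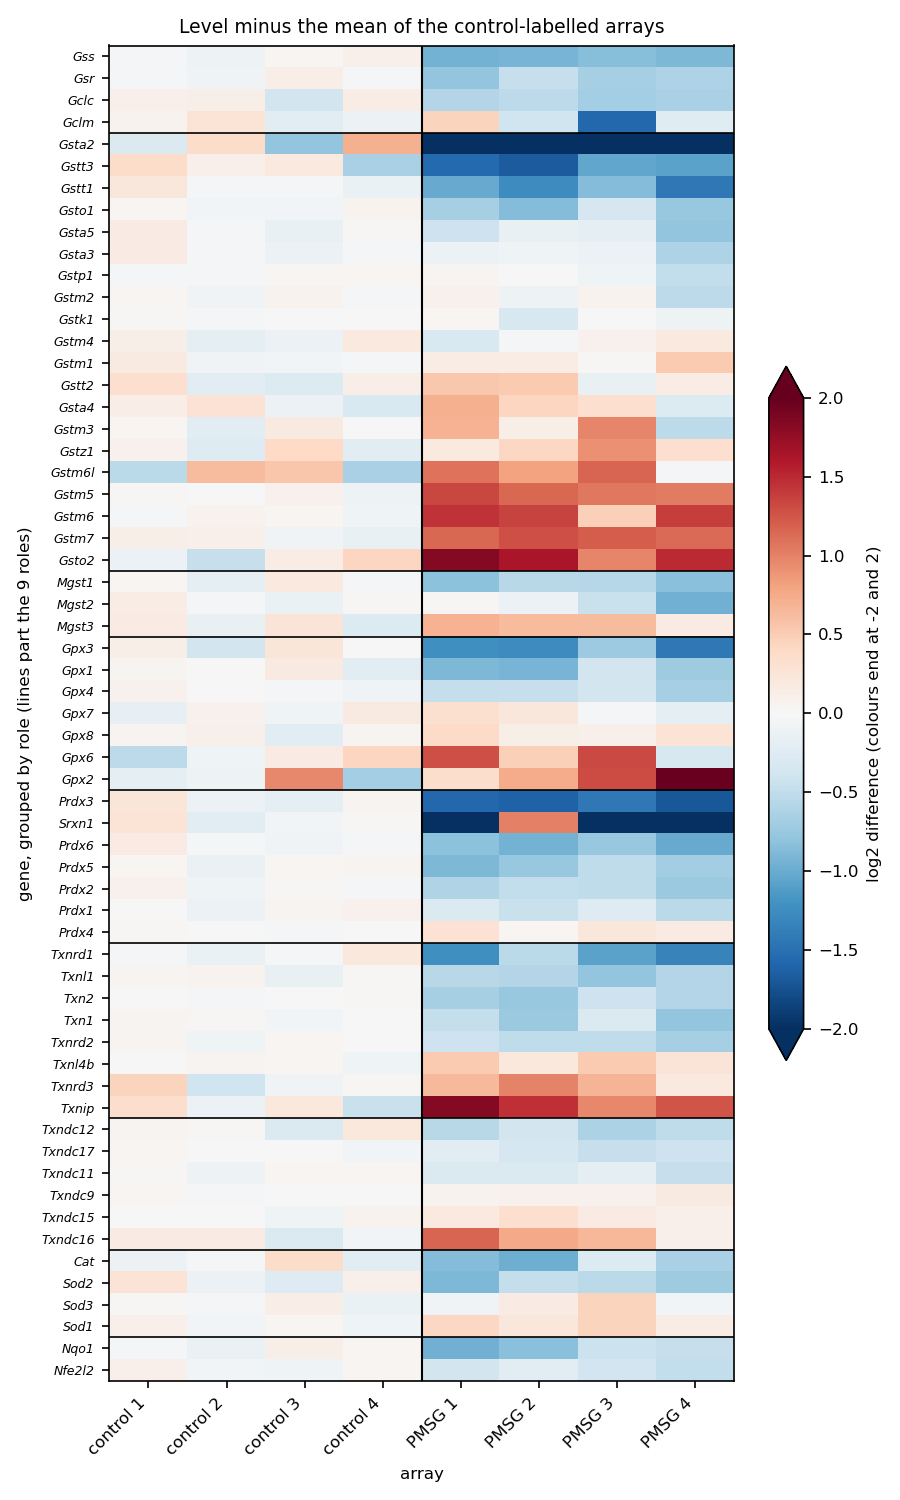
Level of each of the 61 tested members (y axis, grouped by role) on each of the 8 arrays (x axis), as the log2 difference from the mean of the control-labelled arrays; colours end at -2 and 2. Gss, Gsta2 and Prdx3 are blue on all 4 PMSG-labelled arrays and Gstm5, Gstm7 and Txnip red, whereas Srxn1 is red on PMSG-labelled array 2 and blue on the other 3.

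Partner genes that supply or use the same chemistry were read from lists written with earlier results of these data known. Of 115 tested, 55 (47.8%) passed, 15 higher and 40 lower, beside 34.2% of all probes. NADPH supply had 12 of 14 past the threshold, 10 lower and 2 higher, with a median of -0.67. These counts include Por and Fdxr, reductases that use NADPH and do not supply it, both lower (-0.93 and -0.79). Idh1, cytosolic isocitrate dehydrogenase, fell 5.16-fold, a log2 difference of -2.37 ± 0.17 (SE, n = 4 and 4, adjusted p = 7.88e-05). Idh1 read 3.67, 3.09, 3.21 and 3.62 on control-labelled arrays 1 to 4, and 0.92, 1.30, 0.90 and 1.00 on PMSG-labelled arrays 1 to 4. Me1, the cytosolic malic enzyme, fell, a log2 difference of -1.66 ± 0.12 (SE, n = 4 and 4, adjusted p = 7.64e-05), while Me3, a mitochondrial malic enzyme, rose, a log2 difference of 2.11 ± 0.18 (SE, n = 4 and 4, adjusted p = 0.000165). In the list of NRF2 control and targets 11 of 22 passed, 9 lower and 2 higher. The list's median was -0.065, and 10 of the 22 differences were above 0. Osgin1, Cbr1 and Akr1b8 gave -3.67 ± 0.15, -1.72 ± 0.13 and -1.47 ± 0.22. Osgin1, an oxidative stress-induced gene, fell 12.7-fold (adjusted p = 1.38e-05). Among thioredoxin clients and other peroxide enzymes 5 of 13 passed (38.5%, close to the share of all probes), 4 lower and 1 higher. Of the 4 lower, Mt1a, Mt2A and the copper chaperone Ccs (-0.28) are neither thioredoxin clients nor peroxide enzymes. Mt1a and Mt2A, metallothioneins, gave -2.42 ± 0.14 and -2.26 ± 0.12, and Rrm2, a ribonucleotide reductase subunit that draws on thioredoxin, -1.01 ± 0.12.

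Glutathione handling had 10 of 25 past the threshold (40%, beside 34.2% of all probes), 5 in each direction. Abcc4, an efflux pump, fell (-1.66 ± 0.093), Ggt7, of the gamma-glutamyltransferase family, fell (-1.39 ± 0.22), and Slc7a11, the cystine importer, fell (-1.25 ± 0.19). Glutaredoxins and methionine sulfoxide reductases had 5 of 10 past the threshold, 1 higher: Glrx5 gave -0.50 ± 0.086, Msrb1 -0.45 ± 0.15 and Sesn1 -0.46 ± 0.18, the last without a call. Selenium and selenoprotein genes had 5 of 11 past it, all lower: Sepp1, Selm and Vimp gave -1.01 ± 0.16, -0.61 ± 0.15 and -0.59 ± 0.093. Of 20 tested oxidant sources 7 passed (35%, close to the share of all probes), 4 higher and 3 lower: Nos3, endothelial nitric oxide synthase, gave -1.26 ± 0.20, Hao2 -1.16 ± 0.26 and Duox2, an NADPH oxidase, 1.08 ± 0.30.

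**Figure D5:**
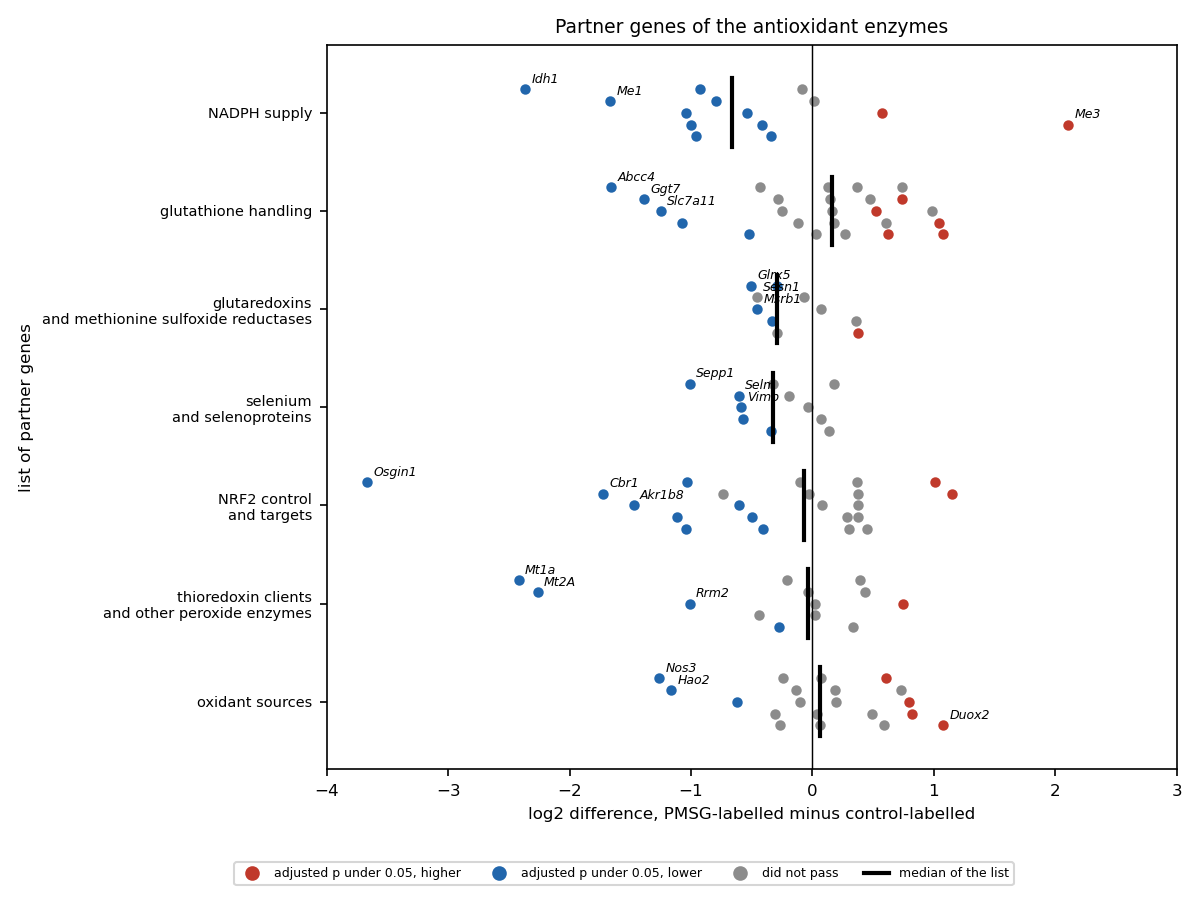
Log2 difference between labels (x axis) for the 115 tested partner genes in 7 lists (y axis), coloured by call, with the median of each list as a bar and the 3 largest differences named. NADPH supply has most points left of 0 and Me3 at the far right; oxidant sources are spread around 0.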

How the data were processed

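Per the file headers, the authors read spot intensity by means of Agilent Feature Extraction 11.5.1.1 and gave probe positions on rn4; the other upstream steps are not given in the sources used here. The deposited scanner files give processed signal intensity, and a deposited table gives log2 values that match these signals minus each array's 75th percentile (median difference at most 0.015). Control and outlier spots were left out, spots of a probe averaged, and 17 probes without a usable spot dropped. A probe was tested where at least 50% of its spots were well above background on at least 4 of 8 arrays. The test was limma 3.58.1 (R 4.3.3, no covariates), checked on simulated data; p-values were adjusted by Benjamini-Hochberg across the tested probes, threshold 0.05. Columns not used numbered 0. Alternatives were normexp (offset 50), quantile, median centring, 2 filters, the deposited log2 table, blocks for replicate and slide row, array weights, robust variance, the mean of probes and each array left out. Members, lists and the naming rule were chosen with earlier results of these data known. Named with all 8 values are called members past 2-fold, key enzymes and the 2 largest in each role; of partners, the 3 largest per list are named, with their difference. The 17 settings counted beside single genes leave out the replicate block, which the closing section gives. Protein sequences and rn4 exon annotation were not used here, so a probe position is as the headers give it.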

Additional observations from a re-analysis of the deposited data

Results flagged for a closer look

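In groups of 4 arrays, the highest or lowest level of a member gene was compared with its nearest neighbour, as a share of the group's whole range, and 12 of 122 groups exceeded Dixon's value of 0.829, where chance gives about 1 in 20, or 6.1. Gclc read 1.24 on control-labelled array 3, against 1.70 to 1.75 on the other 3 (ratio 0.904), and its difference without that array was -0.73. On control-labelled array 3, Gpx8 stood at 1.82 while the others lay from 2.10 to 2.15, a ratio of 0.854, with a difference of 0.14 once it was left out. A ratio of 0.936 arose for Gsta3, at 5.37 on PMSG-labelled array 4 and 5.87 to 5.90 elsewhere in the group; the difference without it was -0.11. Gstm1 read 0.99 on control-labelled array 1, against 0.74 to 0.77 on the other 3 (ratio 0.894), and its difference without that array was 0.27. On PMSG-labelled array 3, Gstm6 stood at -4.14 while the others lay from -3.27 to -3.17, a ratio of 0.899, with a difference of 1.39 once it was left out. A ratio of 0.877 arose for Mgst3, at 1.01 on PMSG-labelled array 4 and 1.47 to 1.53 elsewhere in the group; the difference without it was 0.66. Prdx5 read 3.15 on control-labelled array 2, against 3.31 to 3.33 on the other 3 (ratio 0.892), and its difference without that array was -0.76. On control-labelled array 1, Prdx6 stood at 2.84 while the others lay from 2.62 to 2.65, a ratio of 0.866, with a difference of -0.83 once it was left out. A ratio of 0.854 arose for Srxn1, at 2.82 on PMSG-labelled array 2 and -0.77 to -0.25 elsewhere in the group; the difference without it was -2.39. Txndc11 read 0.80 on control-labelled array 2, against 0.94 to 0.95 on the other 3 (ratio 0.918), and its difference without that array was -0.34. On PMSG-labelled array 4, Txndc9 stood at 1.80 while the others lay from 1.70 to 1.71, a ratio of 0.837, with a difference of 0.079 once it was left out. A ratio of 0.846 arose for Txnl1, at 3.35 on PMSG-labelled array 3 and 3.54 to 3.58 elsewhere in the group; the difference without it was -0.57. PMSG-labelled array 4 held 3 of the 12, PMSG-labelled array 3 and control-labelled arrays 1, 2 and 3 held 2 each, and PMSG-labelled array 2 held 1.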

How the results depend on the processing

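The count of 36 called members stayed between 30 and 39 over the alternatives, and 27 of the 36 kept their call and direction under each of the 18 fitted gene by gene. Of the members without a call, 10 passed under at least 1 of these 18. They were Gpx2, Gpx6, Gsta3, Gsta5 (brightest probe), Mgst2, Prdx4, Sod1, Srxn1, Txndc15 and Txnrd3. Leaving out one array at a time gave 30 to 38 called members, 24 to 28 lower and 5 to 11 higher, 34 to 42 probes, 43 to 66 partner genes and 6552 to 11382 probes over the array, this last lowest without control-labelled array 4 and highest without PMSG-labelled array 4. The 8 members that were higher numbered 5 with median centring, and also without PMSG-labelled array 1, PMSG-labelled array 3, control-labelled array 2 or control-labelled array 4. Signs turned only for members without a call: Gclm was 0.070 and Gstm4 0.020 with normexp; Gpx7 was -0.082, Sod3 -0.046 and Txndc9 -0.065 with median centring; and with one array left out Gstm2 ran from -0.18 to 0.016 (above 0 without PMSG-labelled array 4) and Gstm4 from -0.080 to 0.090 (above 0 without PMSG-labelled array 1, control-labelled array 1 or control-labelled array 4, at 0.090, 0.027 and 0.055). The cause was not tested. With the replicate number as a block (pairing by the numbers in the titles), 30 members passed, 7 higher and 23 lower, and 7346 of all probes; Sod2, Prdx1, Nfe2l2, Txnl4b, Txndc11 and Txndc17 did not pass (adjusted p from 0.0503 to 0.0925). Same-numbered arrays correlated at 0.044, 0.036, 0.18 and -0.019 in their deviations. Correlations of differently numbered arrays are not given here, so these values cannot decide whether the numbers pair the arrays. Slide row as a block gave 33 members. With array symbols replaced by RefSeq symbols, an alternative chosen after seeing the data, 37 of 62 genes passed, 8 higher and 29 lower. Requiring signal on all 8 arrays left 59 members, without Gclm and Gsto2. The number of arrays, 4 per label, limits the precision, and signal near background limits Gclm, Gsto2 and the 4 untested genes. Counts of called genes do not say that the same genes were called, except where shared counts are given.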

Other observations

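Other genes of the NRF2, NADPH and glutathione handling lists, chosen after their values were seen, read as follows. Hmox1, heme oxygenase 1, fell (-1.04 ± 0.18, adjusted p = 0.00325). Aldh3a1, of the same NRF2 list, rose (1.15 ± 0.21, adjusted p = 0.00382). Idh2, the mitochondrial isocitrate dehydrogenase, rose by 0.57 (adjusted p = 0.00168), against the fall of Idh1 given above. Keap1, which holds NRF2 in check, gave -0.10 ± 0.11 without a call, and Cul3, its ubiquitin ligase partner, rose by 1.01 (adjusted p = 0.000471). Ptges and Cbs, which serve prostaglandin E and cysteine synthesis, rose by 1.05 and 1.08.

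PMSG-labelled array 2, where Srxn1 was high, exceeded every other PMSG-labelled array by at least 2 on 8 of 25303 tested probes, beside 15, 7 and 6 for arrays 1, 3 and 4. Among the 8 were Egr4 and Nr4a3, both immediate early genes. Egr4 read -0.47 there and between -6.41 and -5.12 on the other PMSG-labelled arrays. Nr4a3 read 0.63, against -4.93 to -1.62. Star was also highest there among PMSG-labelled arrays, at 3.81, with 0.99 to 1.92 on the others.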
